A study of Mus musculus with 5 samples.

Results

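CD8 T cells of the mouse kidney were described from 390 cells among 79202 cell barcodes that passed the depth filters in a pooled single-cell RNA sequencing table. A barcode was taken as a CD8 T cell when it held at least 500 unique molecular identifiers (UMIs, each standing for 1 captured transcript), at least 200 genes and at most 25% of its UMIs on mitochondrial genes. It also needed at least 1 UMI over Cd3d, Cd3e and Cd3g and at least 1 UMI over Cd8a and Cd8b1, with Cd4 and Cd79a at 0, Lyz2 at most 2 and Lrp2 at most 1. The cells were thus chosen by the measured UMIs of these 9 genes, so the levels of these genes are no finding. Ccl5, the other marker named for these cells, was not used by the gate.

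The kidneys came from sham-operated mice and from mice with unilateral ischemia-reperfusion (UIR), a model of acute kidney injury (AKI), taken at days 1, 3, 14 and 28, and the labels state that tissue of 3 mice went into each kidney sample. The methods name male C57BL/6J mice, young adults with a clamp on the left renal pedicle and the right kidney left in place, and sham mice had the same surgery without the clamp; the labels name no genetic change. The 5 libraries are told apart in the table only by a numeric barcode suffix, and the labels do not tie that number to sham or to a day, so library and condition cannot be told apart and nothing is given by day. The methods speak of more matrices than there are suffixes, and whether a suffix stands for 1 library or for several merged ones was not settled; each suffix is called a library here. The labels give goblet cell as the cell type of every sample, which these cells do not bear out: they were chosen for T cell genes from whole dissociated kidney.

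CD8 T cells recognise peptide on MHC class I through the αβ T cell receptor (TCR), with CD8 as coreceptor and the CD3 chains passing the signal on. Naive cells circulate through lymphoid organs with the help of the chemokine receptor CCR7. After activation they acquire granzymes and perforin, which kill target cells, and chemokines such as CCL5, CCL4 and XCL1, and part of them stay in tissues such as the kidney as resident memory cells.

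Because the results turn on which killing genes these cells carried, the stretch of 250 bases just upstream of the RefSeq start of Gzma, Gzmb, Gzmk, Nkg7 and Prf1 is shown (GRCm38.p6, 5′ to 3′ on the gene's strand). These are the granzymes A, B and K (serine proteases), a cytotoxic granule protein and perforin, which forms the pore. Capitals mark matches of a Runx core, TGTGGT or its reverse complement ACCACA, and of a T-box core, AGGTGT or its reverse complement ACACCT, both of which were searched on both strands and do not overlap each other in these stretches. The windows are chr13:113100982-113101231 on the minus strand for Gzma, chr14:56262335-56262584 on the minus strand for Gzmb, chr13:113180966-113181215 on the minus strand for Gzmk, chr7:43436888-43437137 on the plus strand for Nkg7 and chr10:61297586-61297835 on the plus strand for Prf1.
Gzma: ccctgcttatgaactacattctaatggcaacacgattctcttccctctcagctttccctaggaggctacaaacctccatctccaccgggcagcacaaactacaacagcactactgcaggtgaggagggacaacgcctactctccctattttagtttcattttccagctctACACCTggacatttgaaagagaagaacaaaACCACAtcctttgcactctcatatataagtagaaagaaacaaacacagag
Gzmb: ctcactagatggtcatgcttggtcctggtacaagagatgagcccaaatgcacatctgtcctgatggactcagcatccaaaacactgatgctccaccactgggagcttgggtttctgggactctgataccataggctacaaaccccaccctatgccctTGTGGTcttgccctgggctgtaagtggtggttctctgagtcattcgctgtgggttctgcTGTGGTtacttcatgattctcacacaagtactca
Gzmk: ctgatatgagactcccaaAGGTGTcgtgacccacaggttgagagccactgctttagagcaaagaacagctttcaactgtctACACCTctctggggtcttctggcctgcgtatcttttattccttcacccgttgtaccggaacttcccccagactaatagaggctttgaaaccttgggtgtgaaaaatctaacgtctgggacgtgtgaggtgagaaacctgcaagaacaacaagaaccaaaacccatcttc
Nkg7: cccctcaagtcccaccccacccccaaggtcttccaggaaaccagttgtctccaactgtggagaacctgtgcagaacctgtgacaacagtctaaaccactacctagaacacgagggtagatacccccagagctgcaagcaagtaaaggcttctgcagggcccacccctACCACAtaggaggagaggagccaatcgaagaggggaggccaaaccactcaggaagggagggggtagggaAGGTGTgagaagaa
Prf1: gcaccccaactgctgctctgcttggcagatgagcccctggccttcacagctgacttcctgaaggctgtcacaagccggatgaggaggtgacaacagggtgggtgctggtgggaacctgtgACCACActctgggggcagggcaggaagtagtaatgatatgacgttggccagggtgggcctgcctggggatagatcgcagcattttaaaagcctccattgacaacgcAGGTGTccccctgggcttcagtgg

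Gzma, Nkg7 and Prf1 each held 1 match of either core, Gzmb held 2 of the Runx core and 0 of the T-box core, and Gzmk held 0 of the Runx core and 2 of the T-box core. Among 27025 RefSeq windows of the same length, 14.2% held the Runx core and 12.0% the T-box core, so matches of this length are common and describe letters only. Of the factors that bind such cores, Runx3, which sets the CD8 lineage, stood at 175 CPM, which are its UMIs per 1000000 UMIs summed over the CD8 T cells. Tbx21 (T-bet) stood at 25.1 CPM and Eomes (eomesodermin) at 33.1 CPM, both T-box factors of effector and memory cells.

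CD8 T cells made up 0.492% of the passing barcodes (exact Clopper-Pearson 95% interval 0.445 to 0.544). Libraries 1 and 2 held most of them. Library 1 had 147 of 10020 barcodes, or 1.47% (1.24 to 1.72), and library 2 had 142 of 11313, or 1.26% (1.06 to 1.48). Library 3 had 69 of 33839, or 0.204% (0.159 to 0.258), library 4 had 25 of 11285, or 0.222% (0.143 to 0.327), and library 5 had 7 of 12745, or 0.0549% (0.0221 to 0.113). The intervals of libraries 1 and 2 lay above those of the other libraries, while those of libraries 3 and 4 overlapped. The passing barcodes of library 3 had a median of 1242 UMIs, against 3190 to 4294.5 in the other libraries, and the part of the minimum of 500 UMIs in its share was not tested. All intervals here and below are 95% and cover counting error only, and with the conditions in 1 pooled table there is no replicate check and no test.

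**Figure D1:**
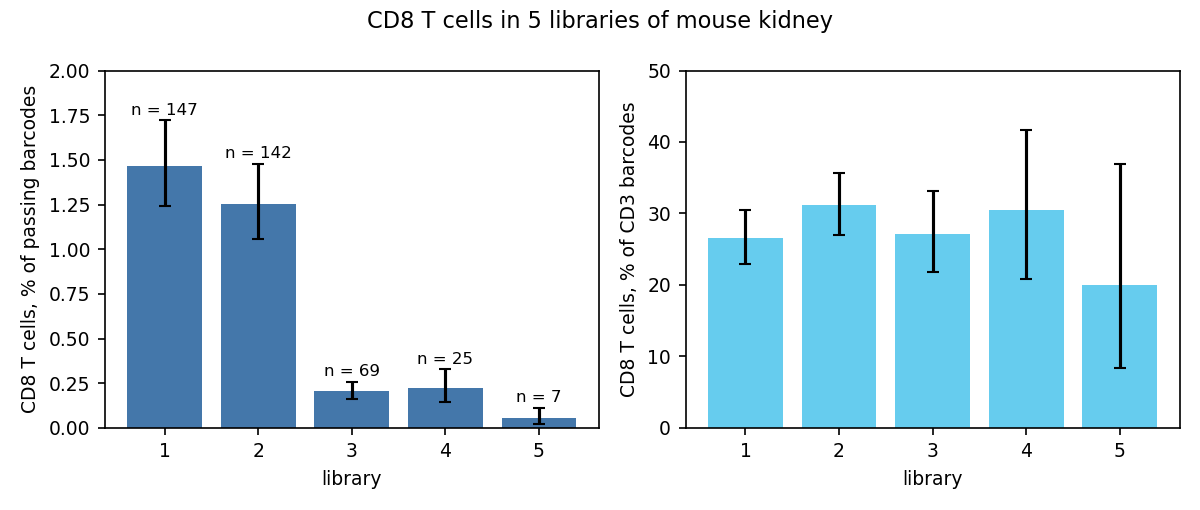
Share of CD8 T cells by library number, as a percent of all barcodes passing the filters and as a percent of barcodes with a CD3 UMI. Columns are shares and the lines on them are exact 95% intervals. Libraries 1 and 2 stand above the others in the first share (1.47% and 1.26% against at most 0.222%), while the second runs from 20% to 31.2% with overlapping intervals.

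Relative to other T cells the share was more even. Of 1378 barcodes with a CD3 UMI and the same exclusions, 390 were CD8 T cells (28.3%, 25.9 to 30.8), 178 held Cd4 without Cd8a or Cd8b1, 808 held no coreceptor UMI and 2 held both coreceptors. The CD8 share of CD3 barcodes was 26.6%, 31.2%, 27.2%, 30.5% and 20% in libraries 1 to 5, with overlapping intervals. The number of CD8 per CD4 barcode was 2.19 over all and 2.19, 1.87, 2.88 and 2.27 in libraries 1 to 4, and library 5 had 7 against 0. The CD4 number rests on the detection of Cd4 itself.

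The CD8 T cells were shallow. They held 997750 UMIs in all, with a median of 1971.5 UMIs (quartiles 1589 and 2771.75, range 629 to 15945) and 861.5 genes per cell, against a median of 2590 UMIs over all passing barcodes. The library medians were 1644, 2315.5, 2045, 2629 and 1705 UMIs. The median mitochondrial share was 5.70%. The raw table held 82426945 to 139382799 UMIs per library, and 107312 barcodes reached 500 UMIs. A total of 642 barcode sequences of 16 bases passed the filters in more than 1 library; 8 CD8 T cells carried such a barcode, and no barcode was shared between CD8 T cells of different libraries.

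Receptor genes that the gate did not use bore out the T cell label. Trac, Trbc1 or Trbc2, the constant regions of the αβ receptor, were found in 378 of the 390 cells. Trbc2 stood at 1520 CPM, Trbc1 at 679 CPM and Trac at 600 CPM, although reads can be shared between the near-identical Trbc1 and Trbc2. Both β constant genes had UMIs in 159 cells, Trbc2 alone in 179, Trbc1 alone in 25 and neither in 27. Variable segments were scarce in this 3′ assay: 128 Trav genes gave 30 UMIs in 25 cells, led by Trav16 with 5, and 35 Trbv genes gave 9 UMIs in 8 cells. Lck, the kinase that works with CD8, was found in 59.2% of cells and the costimulatory receptor Cd28 in 46.4%.

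Genes of other cell types were found in part of these cells. Foxp3 (regulatory T cells), Ncr1 (natural killer cells), Il23r (IL-17 producing T cells) and Trdv4 (γδ T cells) had 0 UMIs in 390 cells, which, with 3 counts as the limit a count of 0 allows, leaves room for a share of cells with a UMI of up to 0.769%. Of the other genes of these kinds, Trdc, the γδ constant region, was found in 8 cells, Tcrg-C1 in 5 and Il17a in 3, and of the natural killer genes Klre1 was found in 17 and Klrb1c in 3. The natural killer list of 5 genes summed to 63 UMIs in 38 cells, with 2 genes at 0, and the dendritic cell list to 1 UMI, with 4 of 5 genes at 0. The monocyte and macrophage list, whose Lyz2 the gate held to at most 2 UMIs, gave 128 UMIs in 47 cells, the neutrophil list 88 UMIs in 21 cells and the B cell list 95 UMIs in 72 cells, with 3 of 5 B cell genes at 0, of which Cd79a was set to 0 by the gate. Ighm, the IgM heavy chain, held 92 of these UMIs and was found in 17.7% of CD8 T cells (14.0 to 21.8), against 0.704% of proximal tubule barcodes.

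Proximal tubule RNA was found in nearly every CD8 T cell. The list of 8 proximal tubule genes, among them Kap and Gpx3, summed to 6120 CPM and had UMIs in 371 cells. It reached 7728, 3216, 10138, 4940 and 9537 CPM in libraries 1 to 5. The median cell held 0.227% of its UMIs on these genes, and the library medians were 0.195%, 0.136%, 0.989%, 0.499% and 0.797%. Among barcodes with fewer than 100 UMIs, which hold free RNA, Kap stood at 20038 CPM, Ccl5 at 55.8, Nkg7 at 9.31, Gzma at 6.84 and Gzmk at 0.791 CPM. The part of free RNA in the shares given below was not tested beyond the proximal tubule comparison.

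Ccl5 (chr11:83525778-83530518 on the minus strand, GRCm38), which encodes a chemokine that draws T cells and monocytes, had the most UMIs of the cytotoxic and chemokine lists in this 3′ assay, which counts transcript ends. It stood at 9755 CPM (exact Poisson interval 9562 to 9951) and was found in 340 cells, or 87.2% (83.4 to 90.3), against 51.7% of CD4 barcodes and 1.61% of proximal tubule barcodes. The proximal tubule barcodes were deeper, with a median of 6284 UMIs, so free RNA had more room to appear there. With every cell thinned to 500 UMIs the expected shares were 79.5% in CD8 T cells and 0.394% in proximal tubule. A CD8 T cell held a median of 19 Ccl5 UMIs, with quartiles of 7 and 34 and a maximum of 205.

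Nkg7 (chr7:43437073-43438249, plus strand) was about as widespread, in 89.7% of cells (86.3 to 92.6) at 1829 CPM (1746 to 1915), against 42.1% of CD4 and 0.531% of proximal tubule barcodes. Ctsw, a cathepsin of cytotoxic cells, was found in 59.7% of cells at 452 CPM. Both were thus cytotoxic genes of most CD8 T cells, whereas the granzymes marked fewer cells. Gzmk (chr13:113171608-113225908, minus strand) was found in 30.8% (26.2 to 35.6), Gzmb (chr14:56258838-56262260, minus strand) in 26.4% (22.1 to 31.1) and Gzma (chr13:113093825-113100981, minus strand) in 13.1% (9.89 to 16.8). Prf1 was found in 14.4% (11.0 to 18.2). Each of these 4 genes was found in at most 0.324% of proximal tubule barcodes. Reads may be shared among granzyme paralogs, which the counting cannot resolve here.

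**Figure D2:**
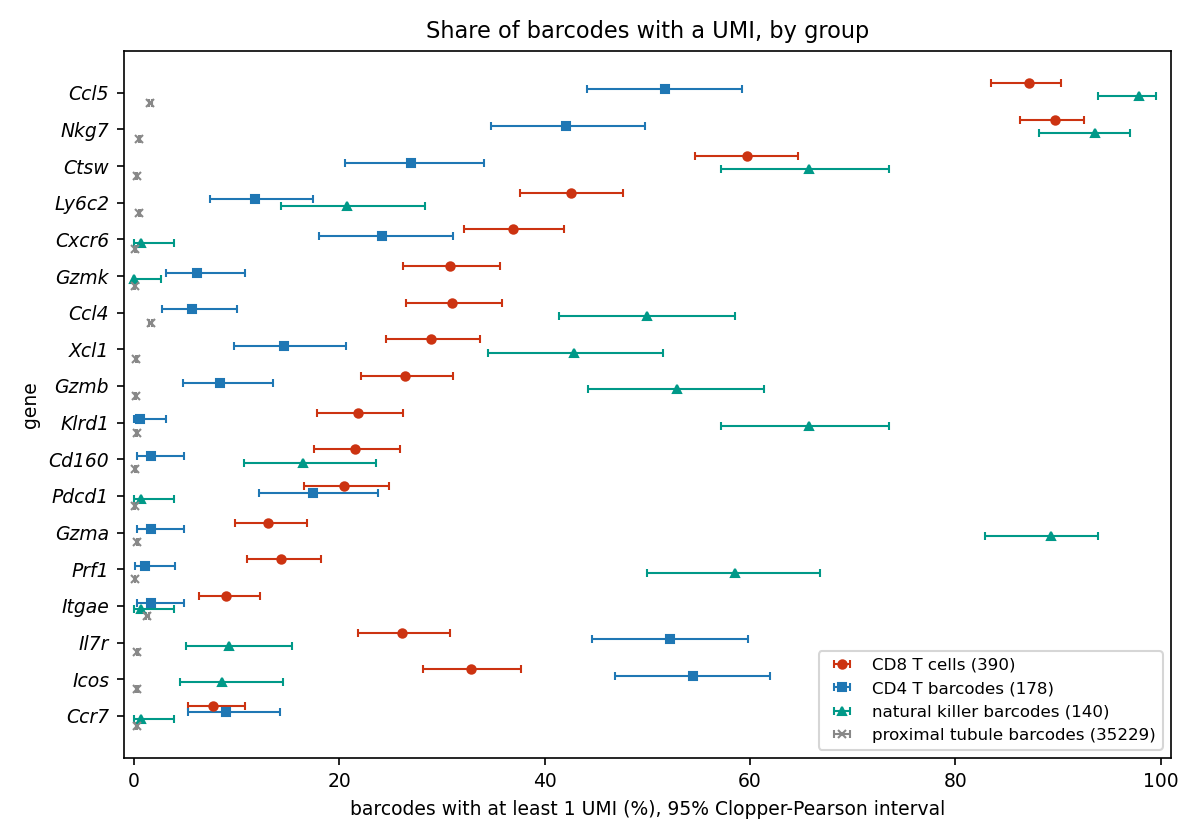
Percent of barcodes with at least 1 UMI of 18 genes (axis in percent) in 390 CD8, 178 CD4, 140 natural killer and 35229 proximal tubule barcodes; points are shares and bars exact 95% intervals. Ccl5 and Nkg7 lie at 87.2% and 89.7% in CD8 T cells, Gzmk is at 30.8% in CD8 and 0 in natural killer barcodes, and proximal tubule barcodes stay at or below 1.65%.

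The killing genes differed in how they were spread over the cells. Gzma had 612 UMIs in 51 cells, and the 3 richest cells held 51.3% of them, with up to 181 UMIs in 1 cell. Gzmb had 594 UMIs in 103 cells, with 29.6% in the 3 richest. Gzmk had 207 UMIs in 120 cells, never more than 6 in a cell, with 8.21% in the 3 richest. Thus the summed levels of 613 CPM for Gzma and 595 CPM for Gzmb were set by few cells, and that of 207 CPM for Gzmk by many. For comparison, the 3 richest cells held 4.05% of Nkg7 and 5.92% of Ccl5 UMIs.

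**Figure D3:**
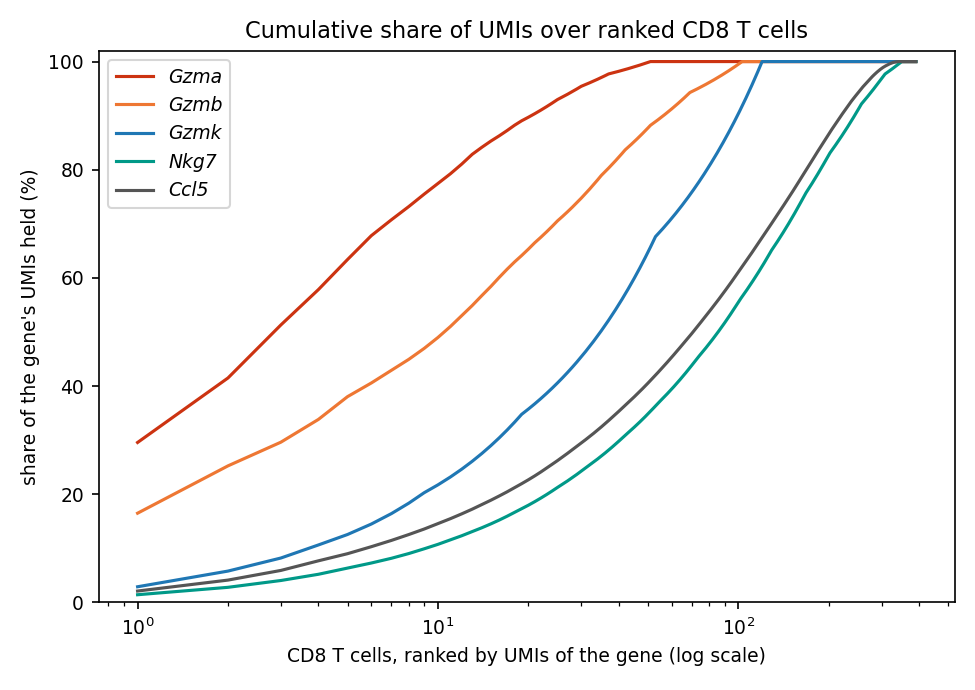
Cumulative percent of a gene's UMIs (vertical axis) over CD8 T cells ranked from the richest (horizontal axis, number of cells, log scale) for Gzma, Gzmb, Gzmk, Nkg7 and Ccl5. The Gzma line reaches 51.3% within the first 3 cells, where Gzmk stands at 8.21% and Nkg7 at 4.05%.

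By their granzyme sets, 195 cells (50%) held no UMI of Gzma, Gzmb or Gzmk. Gzmk alone was found in 73 cells, Gzmb alone in 46 and Gzma alone in 10. Gzmb with Gzmk was found in 25, Gzma with Gzmb in 19, Gzma with Gzmk in 9 and all 3 in 13. Of the 51 cells with Gzma, 62.7% also held Gzmb, against 26.4% of all CD8 T cells. Cells with all 3 genes had a median of 3538 UMIs and those with none 1858, so depth moves with these sets, and its part in them was not tested. These sets, and the pairs of genes below, were chosen after the values were seen.

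Among the other effector genes, Srgn (the granule proteoglycan serglycin) was found in 81.3% of cells, Serpinb9 (an inhibitor that guards against granzyme B) in 27.7%, Cst7 (cystatin F) in 26.4% and Fasl (Fas ligand) in 22.3%. Ifng, the cytokine interferon γ, was found in 14.4% (11.0 to 18.2) at 88.2 CPM and Tnf in 3.08% (1.60 to 5.31). The chemokines Ccl4 and Xcl1 were found in 31.0% (26.5 to 35.9) and 29.0% (24.5 to 33.8) of cells, Ccl3 in 2.56%. The 3 richest cells held 24.8% of the Ccl4 and 16.6% of the Xcl1 UMIs.

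Homing and residency genes were unevenly present. Rgs1, a regulator of chemokine signalling that is high in tissue T cells, was found in 62.1% of cells (57.0 to 66.9), and Cxcr6, the receptor for CXCL16, in 36.9% (32.1 to 41.9). Cd69, which holds cells in tissue, was found in 30.3%, Ccr2 in 19.7% and Cxcr3 in 18.7%. Itgae (CD103, an integrin that binds epithelial E-cadherin) was found in 8.97% (6.33 to 12.3), against 1.30% of proximal tubule barcodes. Itga1 was found in 19.0% of CD8 T cells but in 32.4% of proximal tubule barcodes, and at 500 UMIs in 4.75% against 3.12%, so its share cannot be set apart from the background. Of the 35 cells with Itgae, 68.6% also held Cxcr6, against 36.9% of all CD8 T cells, while 11.4% held Ly6c2, against 42.6%.

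Ly6c2, a surface protein of memory and effector CD8 T cells, was found in 42.6% of cells (37.6 to 47.6) at 650 CPM, though reads may be shared with its paralog Ly6c1. Il2rb (the β chain of the IL-2 and IL-15 receptors) was found in 35.9% and Id2, a factor of effector cells, in 42.1%. Klrg1 and Cx3cr1, which mark terminally differentiated effectors, had 18 and 9 UMIs in all. Among inhibitory receptors, Cd160 was found in 21.5% (17.6 to 26.0) and Pdcd1 (PD-1) in 20.5% (16.6 to 24.9), whereas Lag3, Havcr2 and Tigit had 5, 10 and 3 UMIs. Of the 80 cells with Pdcd1, 56.3% held Cxcr6 and 42.5% held Gzmk, against 36.9% and 30.8% of all CD8 T cells. Cells with these pairs had medians of 2488 and 2061 UMIs, against 1971.5 over all CD8 T cells. The part of depth and of library in these pairs, and in those of Itgae above, was not tested. The natural killer type receptor Klrd1 (CD94) was found in 21.8% of cells and Klrk1 (NKG2D) in 15.1%.

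Naive genes were found in a minority. Ccr7 was found in 7.69% of cells (5.25 to 10.8), and the transcription factors Lef1 and Tcf7 in 13.3% and 14.1%. Il7r, the IL-7 receptor chain of naive and memory cells, was found in 26.2%.

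The coreceptor genes split the cells further. Cd8a and Cd8b1 were both found in 211 cells (54.1%), Cd8a alone in 76 and Cd8b1 alone in 103. Ccl5 was found in 92.9%, 86.8% and 75.7% of these sets. With only 1 UMI over both coreceptor genes, 69.7% of 89 cells held Ccl5, against 92.4% of the 301 cells with 2 or more. Depth moved with these sets, with medians of 2132, 1798 and 1903 UMIs for the first 3 and of 1763 against 2020 for the last pair, and its part was not tested. Trdc was found in 2, 4 and 2 cells of the sets with both genes, Cd8a alone and Cd8b1 alone. Of the cells with Cd8b1 alone, 29, 32, 33, 8 and 1 came from libraries 1 to 5.

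Against the 178 CD4 T barcodes, which had a median of 1875 UMIs, the CD8 T cells carried more of the cytotoxic and chemokine transcripts and less of the helper transcripts. Of 5182 genes with at least 30 UMIs over both groups and outside the gate, 3.26% were at least 2-fold higher in CD8 T cells and 4.52% at least 2-fold lower, and the median log2 ratio of all of them was -0.08. Of the cytotoxic list, 7 of the 11 genes at that floor were at least 2-fold higher and 0 lower, with a median log2 ratio of 1.91. All 4 chemokines (median 3.39) and all 4 natural killer type receptors at the floor (median 2.66) were at least 2-fold higher. All 6 helper and regulatory genes at the floor were at least 2-fold lower (median -1.87).

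Gzma stood at 613 CPM against 27.6 in CD4 barcodes, a log2 ratio of 4.47 (exact conditional interval 3.69 to 5.39). Prf1 stood at 65.1 against 4.25 CPM (3.94, 2.03 to 7.02), with only 2 UMIs in CD4 barcodes. Gzmb stood at 595 against 65.8 CPM (3.18, 2.66 to 3.75) and Gzmk at 207 against 27.6 CPM (2.91, 2.10 to 3.84). Summed over the libraries, all 4 killing genes were thus higher in CD8 T cells beyond counting error. These intervals do not cover UMIs gathered in few cells, as seen for Gzma and Gzmb, and Gzmb stood at -0.70 within library 3. All 13 CD4 UMIs of Gzma came from library 3, and 1 barcode held 76.9% of them. Within libraries 1, 2 and 3 the log2 ratio of Gzma was at least 3.17, at least 6.24 and 1.02, and that of Gzmk 3.08, 3.10 and 1.04. Without library 2 the log2 ratio of Gzma was 2.61, and without library 3 it was at least 6.47 with the floor of 3 UMIs given below. That of Prf1 was 2.92 without library 2 and 4.84 without library 3.

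Ccl5 stood at 9755 against 1265 CPM (log2 ratio 2.95, 2.83 to 3.07), and at 3.98, 2.96 and 1.71 on the log2 scale within libraries 1, 2 and 3, the libraries with at least 20 cells of both groups. Nkg7 stood at 1829 against 488 CPM (1.91, 1.71 to 2.11), and at 2.50, 1.60 and 1.67 within these libraries. Ccl4 stood at 352 against 23.4 CPM (3.91, 3.06 to 4.93) and Ly6c2 at 650 against 138 CPM (2.24, 1.87 to 2.63). These 4 genes were higher in CD8 T cells in each of the 3 libraries. Gzmb was not: its log2 ratio was 5.21 and 3.66 within libraries 1 and 2 and -0.70 within library 3, where 8 CD8 T cells held it. Xcl1 likewise had 1.77 and 1.81 within libraries 1 and 2 and -2.28 within library 3.

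The natural killer type receptors followed. Klrd1 stood at 141 against 6.37 CPM (4.47, 2.90 to 6.77; 3.79 without library 1) and Klrk1 at 107 against 25.5 CPM (2.07, 1.21 to 3.07). Klrc2 had 40 UMIs against 0, at least 6.30-fold higher with 3 UMIs set as the floor of the CD4 sum, a log2 bound of 2.65 that was 2.04 without library 1 and 1.91 without library 2. Reads of Klr paralogs may be shared. The inhibitory receptor Cd160 stood at 137 against 10.6 CPM (3.69, 2.44 to 5.34). Eomes stood at 33.1 against 2.12 CPM (3.96, 1.38 to 9.31), with 1 UMI in CD4 barcodes, a log2 ratio of 2.88 without library 2 and a bound of at least 2.14 without library 1, which held that UMI. Runx3 stood at 175 against 74.3 CPM (1.24, 0.71 to 1.81), while Tbx21 had a log2 ratio of 0.24 (-0.87 to 1.46), which this depth cannot tell from 0.

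Other genes with high ratios to CD4 barcodes were Ccl3 (3.82, 1 CD4 UMI), ccdc198 (3.82), Gpr18, a G protein-coupled receptor (3.69), and Wfdc15b (3.38, with 72.7% of its CD8 UMIs in 1 cell). Itgae stood at 52.1 against 8.49 CPM (2.62, 1.18 to 4.55). Of the residency list, 3 of the 6 genes at the floor were at least 2-fold higher, with Itga1 at 1.25 and Prdm1 (Blimp-1) at 1.24 beside Itgae, while Cd69 had 0.21 (-0.18 to 0.61) and Rgs1 0.38 (0.16 to 0.60). Itga1 is also read in proximal tubule, as given above.

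Lower in CD8 T cells were the helper genes. Cd40lg, the ligand with which helper cells license other cells, had 2 UMIs against 44 (-5.54, -8.63 to -3.60; -4.21 without library 2 and -6.50 without library 4). Tnfrsf4 (OX40) stood at 12.0 against 374 CPM (-4.96, -5.94 to -4.12) and Tnfsf8 (CD30 ligand) at a log2 ratio of -4.67 (-6.60 to -3.22). Gata3, a factor of helper cells, had -1.89 (-2.52 to -1.28), Ikzf2 (Helios) -1.85 (-2.31 to -1.41) and Ctla4 -1.80 (-2.22 to -1.39; -1.18 without library 2). Icos had -1.04. Genes of other lists were lower too, with Il7r at -1.10 (-1.38 to -0.82), Cd5 at -1.64 and Cd44 at -1.22. For Il7r the value within library 3 was 0.07, against -0.86 and -1.60 within libraries 1 and 2.

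Several of the lowest genes sat in few CD4 barcodes. Tagln had a log2 ratio of -6.78, but 1 CD4 barcode held 91.9% of its CD4 UMIs, and for Ccl1 (0 against 32 UMIs, at least 22.6-fold lower) 1 CD4 barcode held 81.3%. Low in each of libraries 1 to 3 were also Podnl1 (-3.45), Ramp3 (-2.85), Tspan32 (-2.71), Fam110a (-2.56) and Dusp10 (-2.29). Within library 3 they stood at -1.28, -0.70, -2.87, -1.28 and -2.09. Podnl1, Ramp3, Tspan32 and Fam110a had only 6, 15, 12 and 9 UMIs over all CD8 T cells, so their library 3 values rest on few UMIs. They can also be bounds, since a group with 0 UMIs was set to the floor of 3 UMIs. The neutrophil list had 3 of 3 genes at the floor at least 2-fold lower (median -3.81), with S100a8 at 30 against 198 UMIs, S100a9 at 54 against 224 and Retnlg at 2 against 38. A single CD4 barcode held 50%, 54.5% and 94.7% of these CD4 UMIs, and the part of such barcodes in the other ratios was not tested. The immediate early and heat shock list had 5 of 9 genes at least 2-fold lower (median -1.02), with Fos at -1.26, though Fos had -2.48, 0.35 and -0.47 within libraries 1, 2 and 3 and 1 CD4 barcode held 37.5% of its UMIs there.

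Some genes were close in both T cell groups. Pdcd1 had a log2 ratio of 0.11 (-0.32 to 0.56), Tox -0.17 (-0.87 to 0.56), Trac 0.12 (-0.10 to 0.33) and Trbc2 0.09 (-0.04 to 0.23). Ifng was lower in CD8 T cells, at 88.2 against 166 CPM (-0.91, -1.37 to -0.45). Neither the interferon list (0 of 10 at 2-fold either way, median 0.23) nor the cell cycle list (0 of 8, median 0.18) stood away from 0. The MHC class II list had 4 of 4 genes at least 2-fold higher, but 2 CD8 T cells with 10 or more such UMIs held 807 of its 889 UMIs and had a median of 8686.5 UMIs. Without those 2 cells, a choice made after the values were seen, H2-Ab1 had -0.44 and H2-Aa -0.54.

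The 140 natural killer barcodes, which had 0 CD3 UMIs and at least 2 UMIs over Ncr1, Klrb1c and Klre1, shared the cytotoxic genes but in other proportions. This comparison uses the same CD8 sum as the preceding one. Libraries 1 to 5 held 24, 22, 52, 37 and 5 natural killer barcodes, but 147, 142, 69, 25 and 7 CD8 T cells. The pooled ratios thus weigh the libraries differently on either side, and the part of this was not tested where no values by library are given. Of 4627 genes at the floor, 8.41% were at least 2-fold higher in CD8 T cells and 5.38% at least 2-fold lower, with a median log2 ratio of -0.04. Ccl5 stood at 9755 against 11696 CPM (-0.26, -0.32 to -0.20) and Nkg7 at 1829 against 2305 CPM (-0.33, -0.47 to -0.20). Gzmb stood at 595 against 933 CPM (-0.65, -0.87 to -0.43). The widespread genes Ccl5 and Nkg7 were thus within 2-fold of the natural killer level. So was the sum of Gzmb, but the 3 richest CD8 T cells held 29.6% of its UMIs.

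Gzma stood at 613 against 7309 CPM (-3.57, -3.71 to -3.44; -4.54 without library 2) and was found in 13.1% of CD8 T cells against 89.3% of natural killer barcodes. Prf1 stood at 65.1 against 673 CPM (-3.37, -3.80 to -2.95). Both were lower in CD8 T cells in each of libraries 1 to 4, with Gzma at -5.43, -2.89, -4.35 and -3.23. Gzmk had the opposite direction, with 207 UMIs against 0, at least 18.3-fold higher with the floor of 3 UMIs, a log2 bound of 4.19 that was 3.54 without library 1. Of the cytotoxic list, 1 of 11 genes at the floor was at least 2-fold higher and 3 lower (median -0.54).

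Among chemokines, 3 of 4 were at least 2-fold lower than in natural killer barcodes: Ccl3 (-2.91), Ccl4 (-1.47; -2.15 without library 2 and -0.72 without library 3) and Xcl1 (-1.28). All 5 natural killer type receptors at the floor were at least 2-fold lower, with Klrd1 at -2.37 (-2.69 to -2.05) and Klrk1 at -2.38, as were Eomes (-2.33), Serpinb9 (-2.12) and Il2rb (-1.80). The lowest ratios belonged to receptors of natural killer cells and partners: Klrb1a (-7.75), Klra3 (-7.50), Klra9 (-6.91), Klrb1f (-5.58) and Tyrobp (-5.29), with Klra4, Klra8, Klrb1b and Klri2 at 0 UMIs in CD8 T cells. Irf8 had -6.01. The natural killer gate used members of that receptor family, so the direction for the family is in part set by the gate.

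Higher in CD8 T cells than in natural killer barcodes were Ifi27l2a, an interferon-stimulated gene (6.19, 2 natural killer UMIs), Cxcr6 (5.93, 3.44 to 11.24, 1 UMI; at least 3.96 without library 2) and Pdcd1 (4.30, 2.43 to 7.36, 2 UMIs; at least 3.24 without library 1). Ctla4 had 4.39 with 1 natural killer UMI (3.74 without library 1 and at least 2.42 without library 4), BE692007 5.25, Ubash3a (a regulator of TCR signalling) 4.15 and Gstp3 4.15, each of the last 3 also with 1. Trac had 4.50 (5.22 without library 3), and Cd6 201 UMIs against 0, directions that the CD3 rule of the gates partly builds in. Ly6c2 had 1.18 (0.83 to 1.54), Icos 2.22 and Il7r 1.18 (0.51 without library 3 and 2.12 without library 4). The interferon list had 5 of 9 genes at least 2-fold higher (median 1.02) and the cell cycle list 8 of 8 (median 2.05). Of the 390 CD8 T cells, the 30 cycling ones described below held 320 Stmn1 UMIs, against 44 in all others. For Tyms they held 43 UMIs against 14.

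**Figure D4:**
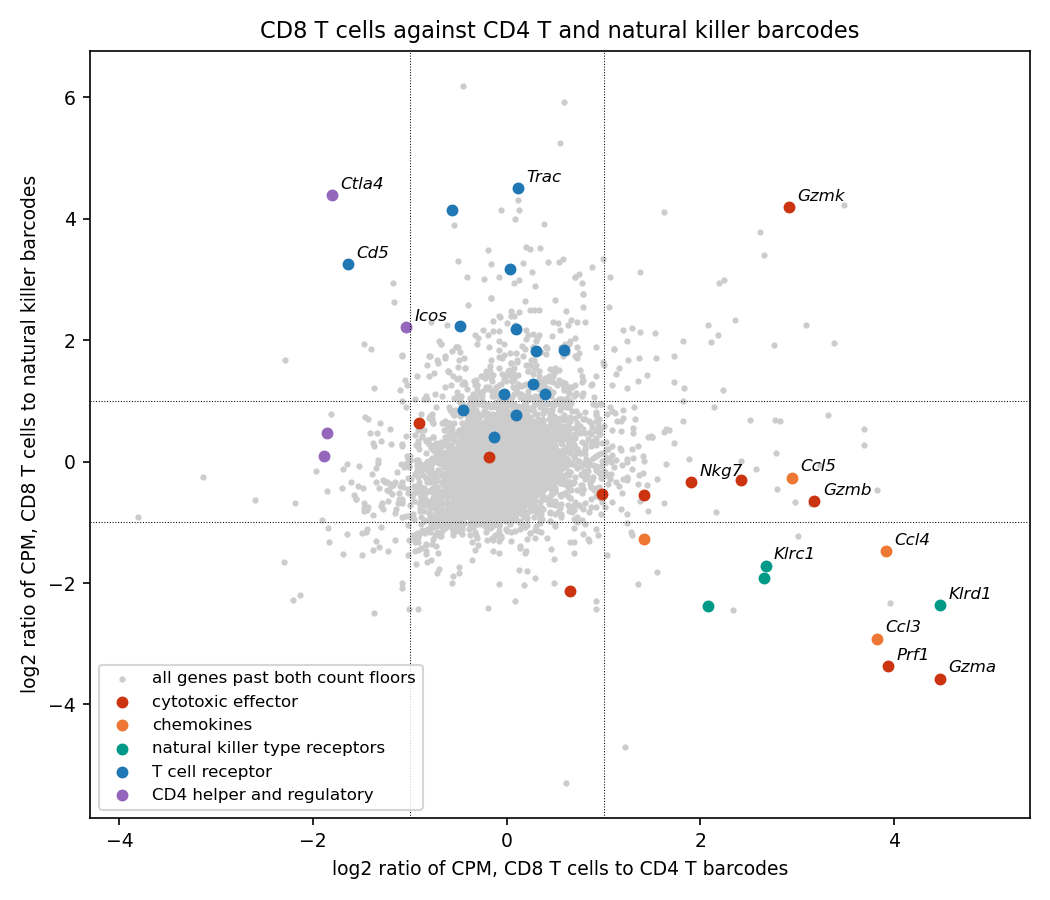
Log2 ratio of CD8 T cells to CD4 barcodes (horizontal axis) against log2 ratio to natural killer barcodes (vertical axis), for genes past the floor in both; gray points are all such genes, coloured points 5 lists, dotted lines 2-fold, and ratios against a group at 0 are bounds. Both axes share the CD8 sum. Gzma lies at 4.47 and -3.57, Gzmk at 2.91 and at least 4.19, and Ccl5 at 2.95 and -0.26.

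Against the 808 CD3 barcodes with no coreceptor UMI, which had a median of 1556.5 UMIs and again share the CD8 sum, 1.9% of 7256 genes were at least 2-fold higher in CD8 T cells and 8.28% at least 2-fold lower (median -0.12). Of the cytotoxic list, 6 of 12 genes were at least 2-fold higher, with Gzma at 3.28 (2.97 to 3.60), Gzmb at 2.45, Gzmk at 2.42 and Prf1 at 2.27. Ccl5 had 2.16 and Nkg7 1.67. All 8 helper genes were at least 2-fold lower, and so were all 4 unconventional T cell genes at the floor, with Trdc at -3.11 and Il17a at -2.75. Areg (amphiregulin, -6.64) and Il1rl1 (the IL-33 receptor, -4.72) were among the lowest. The cell cycle list had 7 of 8 genes at least 2-fold higher (median 1.45), and the cycling CD8 T cells are counted here too. Of other cell types, 2 of 2 neutrophil genes at the floor were lower (median -2.47) and 3 of 3 monocyte and macrophage genes higher (median 1.91), with 86.2% of the C1qb UMIs of CD8 T cells in 1 cell, and their part in these ratios was not tested. This set was not given a cell type.

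The CD8 T cells divided into a large set with Ccl5 (340 cells) and a small set without it (50 cells). The split is on a marker of these cells, so it is a description. Ccr7 stood at 12.7 CPM with Ccl5 and 387 CPM without it (log2 ratio -4.93, -6.02 to -3.97; -6.06 without library 2, which held 8 of its 11 UMIs with Ccl5). Lef1 was found in 10.9% of cells with Ccl5 (7.78 to 14.7) and in 30% without it (17.9 to 44.6). Both naive genes were thus higher in the cells without Ccl5.

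Of 3807 genes at the floor, 17.0% were at least 2-fold higher in the Ccl5-positive cells and 5.57% at least 2-fold lower, with a median log2 ratio of 0.17. The naive list had 9 of 10 genes at least 2-fold lower and 0 higher (median -2.36), with Tcf7 at -2.35 (-3.05 to -1.62; -1.63 without library 3), Lef1 at -2.09 (-2.84 to -1.32), S1pr1, the receptor for exit from tissue, at -1.78, and Il7r at -1.40 (-1.84 to -0.94; -2.12 without library 1). Klf2 was the exception at -0.92 (-1.92 to 0.19). The MHC class II list had 4 of 4 genes at least 2-fold higher (median 4.22), but without the 2 cells rich in its UMIs H2-Ab1 fell from 4.80 to 1.53 and H2-Aa from 4.45 to 0.45. The cytotoxic list had 9 of 11 genes at least 2-fold higher and 0 lower (median 2.0). Gzma had 612 UMIs against 0 and Gzmb 594 against 0, at least 30.3-fold and 29.4-fold higher with the floor of 3 UMIs. Their log2 bounds of 4.92 and 4.88 were 3.75 and 4.11 without library 2, and 4.08 and 4.16 without library 3. Gzmk had 205 against 2 UMIs (3.93, 2.06 to 6.99; at least 2.45 without library 1 and 3.21 without library 3), and Nkg7 stood at 2045 against 379 CPM (2.43, 2.02 to 2.87). The Gzmk ratio was 2.83 with at least 2 UMIs of Cd8a and Cd8b1, 3.09 by the mean of per-barcode CPM and 4.91 at 1000 UMIs.

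Of the homing list of chemokine receptors and integrins, 7 of 10 genes were at least 2-fold higher (median 1.17), with Cxcr3 at 2.17 (0.58 to 4.48), Cxcr6 at 1.31 (0.51 to 2.24) and the integrin Itgb1 at 1.19 (0.57 to 1.88), while Cxcr4 had -0.30 (-1.35 to 0.91). Ccl4 had 349 against 2 UMIs (4.70; 3.98 without library 2, 5.59 without library 5) and Rgs1 a log2 ratio of 2.27 (1.62 to 3.01). The Ccl4 ratio was 3.44 with at least 2 UMIs of Cd8a and Cd8b1, and 5.37 without members holding 3 or more cycling UMIs. Cd69 had 0.22 (-0.44 to 0.95), which is not resolved from 0. The proximal tubule list went the other way, at 4964 CPM with Ccl5 and 13889 CPM without it, and its part in the split was not tested. A single cell without Ccl5 held 60.3% of the 890 Gpx3 UMIs of that set, and the richest cell held 35.3% for Kap, so few cells set much of this gap. Atp6v1g3 (-7.27) had 95.7% and Spp2 (-2.59) 69.8% of their UMIs without Ccl5 in 1 cell, and S100a9 (-2.86) 78.6%.

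Library 3 held 28 of the 50 cells without Ccl5. Libraries 1, 2, 4 and 5 held 12, 8, 0 and 2. Within library 3 the 2 sets had like depths, with medians of 2062 and 2040 UMIs. Ccr7 there had 1 UMI in 41 cells with Ccl5 and 31 UMIs in 28 cells without it (-5.92, -11.27 to -3.34), Lef1 had -2.07 (-3.60 to -0.68), Tcf7 -2.77 (-4.37 to -1.42), and Il7r was found in 14.6% against 71.4% of cells. Nkg7 had 1.36 (0.81 to 1.96) and Ly6c2 1.91 (1.00 to 2.97). The tubule gene Gpx3 had -0.22 (-0.44 to 0.01) and Kap 0.24 (-0.07 to 0.56) in the same cells. S1pr1 (-0.87, -1.98 to 0.25) was not resolved from 0 there, Klf2 had 0.26, and Gzmk had only 5 UMIs against 0. Over the other libraries (299 against 22 cells) Ccr7 had -4.36, Lef1 -1.81, Nkg7 3.13 and Ly6c2 0.65 (0.13 to 1.22). Gpx3 had -3.09 there, a value that rests on the 1 cell rich in Gpx3.

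The libraries differed in these shares. Ccl5 was found in 91.8%, 94.4%, 59.4%, 100% and 71.4% of CD8 T cells of libraries 1 to 5, with median counts of 17, 28, 7, 18 and 12 UMIs per cell. Ccr7 was found in 4.08%, 4.93%, 24.6%, 0 and 0%, and Lef1 in 10.9%, 12.0%, 23.2%, 8% and 14.3%. Library 3 thus stood lowest in Ccl5 and highest in both naive genes, though its interval for Lef1 (13.9 to 34.9) overlapped those of the other libraries. Library 3 was also the library with the highest tubule share per CD8 T cell, and since library number and condition cannot be told apart, neither can a condition and a technical difference.

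**Figure D5:**
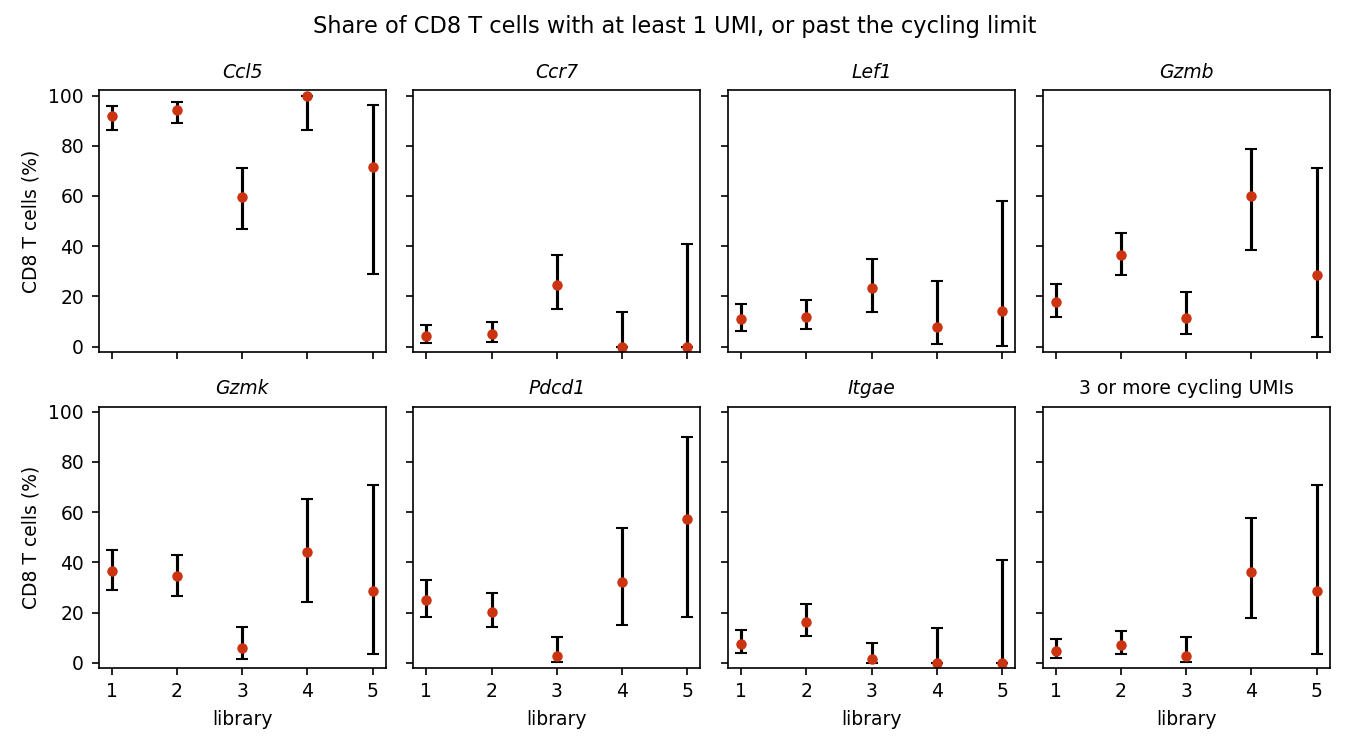
Percent of CD8 T cells with at least 1 UMI of Ccl5, Ccr7, Lef1, Gzmb, Gzmk, Pdcd1 and Itgae, and percent of cycling cells, by library number (147, 142, 69, 25 and 7 cells); bars are exact 95% intervals. Library 3 has the lowest Ccl5 share (59.4%) and the highest Ccr7 share (24.6%), and library 4 the highest Gzmb share (60%).

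Gzmb was found in 17.7%, 36.6%, 11.6%, 60% and 28.6% of CD8 T cells of libraries 1 to 5, and Gzma in 8.16%, 13.4%, 11.6%, 36% and 42.9%. Gzmk was found in 36.7%, 34.5%, 5.80%, 44% and 28.6%, and Pdcd1 in 25.2%, 20.4%, 2.90%, 32% and 57.1%. Library 3 thus stood lowest in Gzmb, Gzmk and Pdcd1, but not in Gzma, and library 4 highest in Gzmb and Gzmk. The intervals overlapped between libraries 1, 2 and 4 for Gzmk and between libraries 1 and 3 for Gzmb. Library 4 rests on 25 cells and was the deepest, with a median of 2629 UMIs. The part of depth and of cycling cells in these shares was not tested. Library 5 rests on 7 cells, and its share of 57.1% for Pdcd1 is 4 of them. Xcl1 was found in 34.0%, 38.7%, 4.35%, 12% and 28.6% and Cxcr6 in 37.4%, 43.0%, 17.4%, 48% and 57.1%. Itgae was found in 7.48%, 16.2%, 1.45%, 0 and 0%, with 11 and 23 of its 35 cells in libraries 1 and 2. Ly6c2 did not follow the other effector genes, at 39.5%, 38.7%, 49.3%, 68% and 28.6%.

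Immediate early genes also varied by library. Jun was found in 6.80%, 25.4%, 59.4%, 36% and 28.6% of CD8 T cells, and Fos in 27.9%, 22.5%, 44.9%, 60% and 28.6%. Both are abundant in tubule, where 79.1% and 68.7% of proximal tubule barcodes held them, so free RNA was not separated from expression for these genes. MHC class I genes were near universal, with H2-K1 in 96.9%, B2m in 95.4% and H2-D1 in 93.8% of cells. Isg15 was found in 23.3% of cells, and the interferon list summed to 790.3, 895, 669, 630.1 and 681 CPM in libraries 1 to 5, and only the intervals of libraries 2 and 3 did not overlap.

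Cycling CD8 T cells, taken as those with at least 3 UMIs over Mki67, Top2a, Birc5, Cdk1, Ccnb2 and Pclaf, numbered 30, or 7.69% (5.25 to 10.8). This rule was set after the values were seen. Libraries 1 to 5 held 7, 10, 2, 9 and 2 of them, which is 4.76%, 7.04%, 2.90%, 36% and 28.6% of their CD8 T cells. The interval of library 4 (18.0 to 57.5) lay above those of libraries 1, 2 and 3, and that of library 5 (3.67 to 71.0) overlapped all. Cycling cells were deeper, with a median of 5324.5 UMIs against 1928 for the others.

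The cycling cells had less Ccl5 per UMI, at 2847 against 11220 CPM (log2 ratio -1.98, -2.11 to -1.85), and less Il7r (-3.14, -4.78 to -1.90, with 5 UMIs). Ccr7 had 0 UMIs in them. The tubule genes Gpx3 (-1.54, -1.79 to -1.30) and Kap (-0.76, -0.97 to -0.55) were lower too, and their part was not tested. Nkg7 was close, at 1564 against 1885 CPM (-0.27, -0.46 to -0.08), and so was Pdcd1 at 0.06 (-0.60 to 0.67). Gzma and Gzmb were higher, at 1.56 and 1.14, but 1 cell held 77.0% and 51.9% of their UMIs among cycling cells, and Gzmk had -0.21 (-0.81 to 0.34). Tyms and Stmn1, proliferation genes that the rule did not use, had 3.86 and 5.10.

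At the edges of the gate, 3 members held under 700 UMIs and 1 barcode outside held at least 350 and under 500. A total of 8 members had 20 to 25% mitochondrial UMIs and 5 barcodes outside had over 25 to 30%, all 5 with Ccl5. With 1 Lrp2 UMI there were 43 members, 33 of them with Ccl5, and with 2 there were 11 barcodes outside, 8 with Ccl5. Of 19 members with 1 CD3 UMI, 9 held Ccl5 and 16 a TCR constant gene, and of 79 barcodes outside with 0 CD3 UMIs, 11 and 14 did. With Cd8a and Cd8b1 at 1 UMI there were 89 members. No doublet caller was run, and barcodes with Cd4, Cd79a or more Lyz2 or Lrp2 were left out by the gate.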

How the data were processed

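Whole kidney single-cell libraries (10x 3′ chemistry) of sham and UIR mice had been aligned with Cell Ranger 6.0 to mm10, as the submitters' processing notes state. The deposited table held raw UMI counts of 32285 genes in 10474594 barcodes of 5 libraries, unfiltered and not normalized by the authors, with no cell annotation; 0 columns of per-sample values were left out. A barcode's numeric suffix is all that names its library, so all barcodes were treated as 1 pooled sample and no test was run. The members, gene lists and rules were chosen with earlier results of these data known.

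Counts were summed per group and given as CPM of those sums (Python 3.11.15, numpy 2.4.6, scipy 1.17.1, pandas 2.3.3, matplotlib 3.10.9) with exact Poisson, Clopper-Pearson and conditional binomial 95% intervals, which cover counting error only. Shares at 500 UMIs are analytic expectations of thinning. The gates of CD4 and natural killer barcodes kept the limits on Cd79a, Lyz2 and Lrp2. Proximal tubule barcodes held at least 2 Lrp2 UMIs. Ratios used genes with at least 30 UMIs over both groups; where 1 group was at 0, a floor of 3 UMIs gave a bound. Named genes were those of the lists and the 10 with the highest and lowest ratios of each comparison among genes with 1 direction in every library that held at least 20 barcodes of both groups. The symbol Znf683, a gene of the residency list, was not matched in the table. No other symbol of that gene was searched, so that list was read without it. Some listed genes count toward their lists but are not reported singly here. The methods of the study clustered merged matrices; this was not repeated. The 2-fold rule and the interval of the ratios were tested on simulated Poisson counts. These do not hold UMIs gathered in few cells, as seen here for Gzma, and the other steps were not tested in this way. A total of 14 other settings and 2 more chosen after seeing the data were tried. Gene positions are from GENCODE and promoter windows from RefSeq, both on GRCm38.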

Additional observations from a re-analysis of the deposited data

How the results depend on the processing

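Libraries 1 and 2 set the number of CD8 T cells: it ranged from 243 to 383 with each library left out. It was 378 at 1000 UMIs, 315 at 10% mitochondrial UMIs, 301 with 2 coreceptor UMIs and 329 with Lyz2 and Lrp2 at 0. The share with Ccl5 was 92.4% with at least 2 UMIs of Cd8a and Cd8b1, 79.5% thinned to 500 UMIs, and 83.1% to 93.1% with each library left out, lowest without library 2 and highest without library 3. A floor of 100 UMIs in place of 30 tested fewer genes and gave 44 higher and 58 lower against CD4, 97 and 52 against natural killer, and 134 and 39 for the Ccl5 split. The mean of per-barcode CPM gave 258 genes higher against CD4. With 2 coreceptor UMIs the Ccl5 split had 129 lower. With each library left out, the genes higher and lower numbered 129 to 169 and 162 to 226 against CD4, and 254 to 413 and 169 to 279 against natural killer, 254 without library 2. For the Ccl5 split they numbered 420 to 705 and 96 to 276, where 420 and 96 are without library 2. With no library left out, 169 and 234 of 5182 genes passed against CD4 and 389 and 249 of 4627 against natural killer. The Ccl5 split then had 649 and 212 of 3807. The number of genes tested changes with the cells and the floor used, so the other counts cannot be read as shares. Of the ratios recomputed for the main named genes over the alternatives, 1639 stayed within their counting interval, 156 moved outside it and 5 changed sign: Fcer1g against CD4 (-0.15 without library 2, and 2.54 without library 3), H2-Ab1 (-0.44) and H2-Aa (-0.54) against CD4 without the 2 cells rich in MHC class II, and Klrc2 (-0.39) and Gata3 (-0.29) in the Ccl5 split with 2 coreceptor UMIs. Where no construction shows it, the cause was not tested. No test was run, paired by library or otherwise, and ratios within libraries are given in the text for some genes. The depth, with a median of 1971.5 UMIs per CD8 T cell, limits the shares of low genes.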
